A study of Mus musculus with 2 samples.

Results

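The SR splicing factor genes Srsf1, Srsf2, Srsf3, Srsf5, Srsf6, Srsf7, Srsf10, Srsf11, Tra2a and Tra2b were followed through the transcript forms annotated for them, in mouse cerebral cortex. The 10 genes were chosen by symbol from 55536 annotated gene entries, and together they carry 90 annotated transcripts. Total RNA, depleted of ribosomal RNA and spiked with ERCC controls, came from the left cerebral cortex of 2 adult male mice of the strain B6CASTF1/J, an F1 hybrid of B6 and Cast, aged 8 to 10 months, with 300 ng used per library. The labels describe both animals alike, as biological replicates 1 (animal 2) and 2 (animal 4) of 1 group, so no condition was compared and no test between conditions exists. Both animals also carry the same donor label, so the SD over them rests on the animal numbers alone and may be partly technical. Values are written as mean ± SD over these 2 animals (n = 2), with no p-value.

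SR proteins carry an RNA recognition domain and a tail rich in serine and arginine, and they bind exons and help the spliceosome to choose splice sites. Many of their genes hold a highly conserved cassette exon with an early stop codon, called a poison exon, or an intron that can be kept, and transcripts with either do not code for the full protein. Transcripts with an early stop are usually degraded by nonsense-mediated decay (NMD), and an SR protein that favours its own poison exon thereby lowers its own messenger RNA.

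The annotation (GENCODE M21 on mm10) sorts each transcript of a gene into classes. Here "coding" means the class protein coding, and every other class is called noncoding, divided into retained-intron transcripts, NMD transcripts and the rest, which for these genes is all of the class processed transcript. A share is the percent of a gene's TPM, a length-normalised abundance, that falls in a class. Each library was quantified in 2 ways by the authors, from alignments to the transcriptome and directly from the reads, and shares are given for both because they split reads among overlapping transcripts differently. The libraries held 24759057 and 27523163 expected counts in annotated genes other than ribosomal RNA. Markers of neurons, astrocytes, oligodendrocytes and microglia were all detected in both libraries, with a summed TPM of 2763 and 2970 for the 4 neuronal markers. The 3 striatal markers were detected as well, with a summed TPM of 546.9 and 591.8. Replicate 1 was higher for all 5 choroid plexus markers (summed TPM 247.3 against 105.1) and for all 3 early response markers (288.1 against 95.6). It was also higher for the 2 endothelial markers (82.2 against 69.5). The part of these differences in any result below was not tested.

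In the alignment-based quantification, the mean level of the 10 genes ran from 29.5 TPM for Tra2a to 112.8 TPM for Srsf5. Srsf5 (ENSMUSG00000021134.17, chr12:80945504-80950507, plus strand), a splicing factor of the classical SR set, was highest, at 94.0 and 132 TPM in replicates 1 and 2. Srsf1 (ENSMUSG00000018379.17, chr11:88047373-88053755, plus strand), the founding member of the family, stood at 83.2 and 87.0 TPM. Srsf2 (ENSMUSG00000034120.18, chr11:116849901-116853094, minus strand), a mostly nuclear SR protein used as a marker of splicing speckles, stood at 62.4 and 69.5 TPM. These 3 genes led, in this order, in both animals.

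Srsf11 (ENSMUSG00000055436.18, chr3:158010473-158036639, minus strand), an SR-related factor, had 55.9 and 60.8 TPM. Srsf3 (ENSMUSG00000071172.13, chr17:29032628-29043373, plus strand), the smallest SR protein and an adaptor of messenger RNA export, had 49.6 and 50.6 TPM. Srsf7 (ENSMUSG00000024097.11, chr17:80200080-80207307, minus strand), an export adaptor with a zinc knuckle, had 48.2 and 43.9 TPM. The order of these 3 was the same in both animals, and the gap between Srsf3 and Srsf7 in replicate 1 was smaller than the SD of Srsf7, 3.09 TPM.

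Srsf6 (ENSMUSG00000016921.14, chr2:162931528-162937121, plus strand), another classical SR protein, had 37.7 and 35.3 TPM. Tra2b (ENSMUSG00000022858.16, chr16:22244549-22266005, minus strand), a Transformer-2 protein that promotes exon inclusion at GAA-rich sites, had 30.8 and 31.7 TPM. Srsf10 (ENSMUSG00000028676.17, chr4:135855747-135869908, plus strand), an SR protein that can act as a splicing repressor, had 33.6 and 27.6 TPM. Tra2a (ENSMUSG00000029817.11, chr6:49243924-49264033, minus strand), the paralog of Tra2b, had 33.3 and 25.7 TPM. The lowest 3 genes could not be ranked, since the animals put them in different orders.

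Between the animals, the genes differed little in total. In TMM-scaled CPM, 0 of the 10 genes were 1.5-fold or more apart, where 3.58% of 14167 genes were. The widest gaps were log2 ratios of replicate 1 to replicate 2 of -0.37 for Srsf5, 0.36 for Srsf10 and 0.36 for Tra2a. The median size of the gap was 1.11-fold over the 10 genes and 1.08-fold over all genes. In the read-based quantification the median ratio of all genes was itself shifted by -0.54 on the log2 scale, and 2 of the genes, Srsf5 and Tra2b, passed 1.5-fold, as 43.0% of all genes did. After centring on that median, Srsf3 alone passed, at 0.81 on the log2 scale, where 7.33% of 14003 genes passed. Its short transcript Srsf3-208 was listed there at 20.3 and 0 TPM in replicates 1 and 2, and at 0 in both by the alignment-based table.

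A large part of the RNA from these genes was outside coding transcripts. The median noncoding share over the 10 genes was 42.8% of TPM, with medians of 39.2% and 41.2% in replicates 1 and 2. The median over 11979 protein-coding genes with at least 2 transcripts and a mean of at least 1 TPM was 12.5%. In the read-based quantification the medians were 44.1% over the 10 genes and 16.6% over 12345 genes. All 10 genes lay above the median of all genes by both quantifications, and 7 lay above its upper quartile of 30.8% (35.5% in the read-based table).

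**Figure D1:**
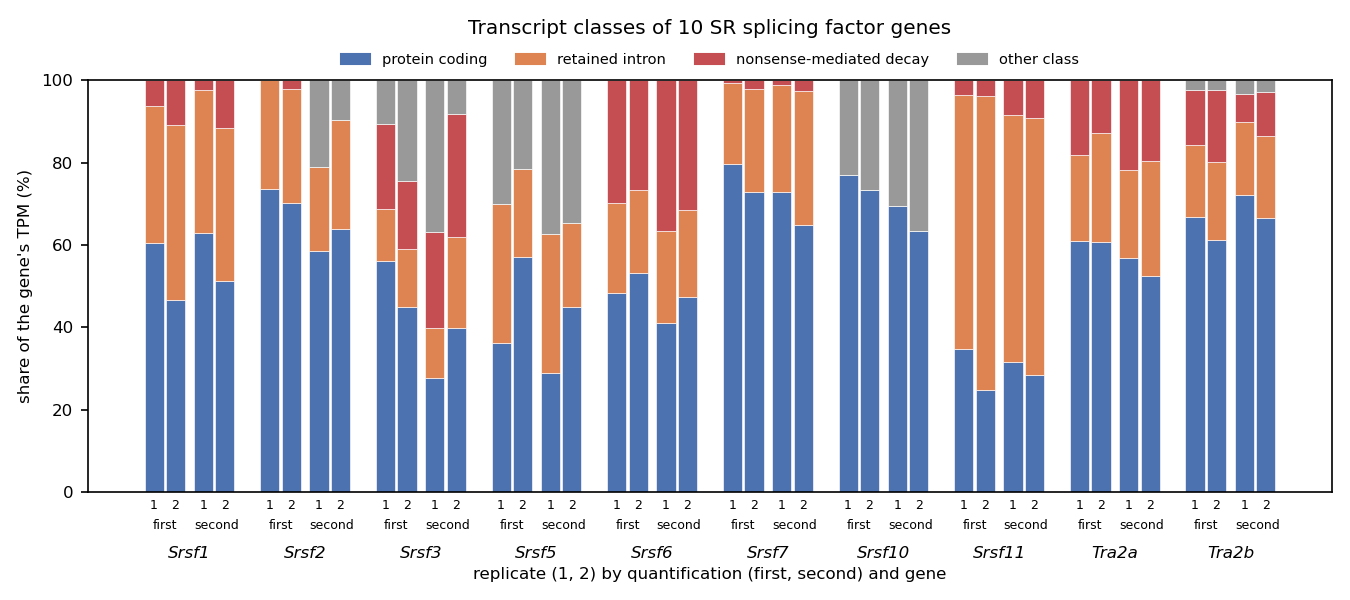
Share of each gene's TPM (y axis, percent) in coding, retained-intron, NMD and other transcripts, with 1 bar per library and quantification (4 bars per gene). In the alignment-based bars the blue coding part is lowest in Srsf11, at 34.7% and 24.8%, and highest by mean in Srsf7, at 79.6% and 73.0%, and Srsf10 has only coding and other transcripts.

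Srsf11 was the only gene of the 10 with at least 50% noncoding TPM in both libraries by the alignment-based quantification, a level that 8.77% of all genes reached. With replicate 1 alone there were 3 (Srsf5, Srsf6 and Srsf11), and with replicate 2 alone 3 (Srsf1, Srsf3 and Srsf11). By the read-based quantification 4 genes reached it in both libraries (Srsf3, Srsf5, Srsf6 and Srsf11), against a background of 10.6%. The level of at least 25% was reached by 8 of the 10, all but Srsf7 and Srsf10, where 26.6% of all genes reached it. By the read-based table all 10 reached it, against 30.4% of all genes.

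A retained-intron share of at least 10% in both libraries by both quantifications was found in 9 of the 10 genes, all but Srsf10, which has no annotated transcript of that class, and in 23.5% of 11950 genes. The 11950 genes include those without an annotated transcript of that class, which cannot reach this level. Over those 9 genes the median retained-intron share was 23.7% of TPM, with 10.5% over the 7649 genes of the background that have such a transcript. By the read-based quantification the values were 24.7% and 11.8%. The class is a label of the annotation, and in Srsf1 and Srsf11 no transcript of it keeps an intron of the leading coding transcript whole. For Srsf1 this depends on which coding transcript is the reference. These libraries hold total RNA without selection for poly(A) tails, so a precursor that is not yet spliced and a finished transcript that keeps its intron cannot be told apart in these tables.

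An NMD share of at least 10% in both libraries by both quantifications was found in 3 of the 10 genes (Srsf3, Srsf6 and Tra2a), and in 7.01% of all genes. Genes without an annotated NMD transcript cannot reach this level. Only 3689 of the 11979 background genes of the alignment-based quantification have such a transcript, so the 2 shares are not on an equal footing. The median over the 9 genes with an annotated NMD transcript was 8.52%, against 4.92% over 3689 genes. By the read-based quantification it was 8.81% against 8.15%.

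The 10 genes are also annotated in more detail than most, with a median of 8.5 transcripts against 5 over the background. Among the 2901 genes that have both a retained-intron and an NMD transcript the median noncoding share was 28.5%, and 7 of the 10 lay above it. Above the upper quartile of these genes, 46.4%, lay 5 of the 10. Srsf10 is counted in the 10 although it has neither kind of transcript. By the read-based quantification the median was 32.8%, with 8 of the 10 above it, and the upper quartile was 52.2%, with 4 of the 10 above it.

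**Figure D2:**
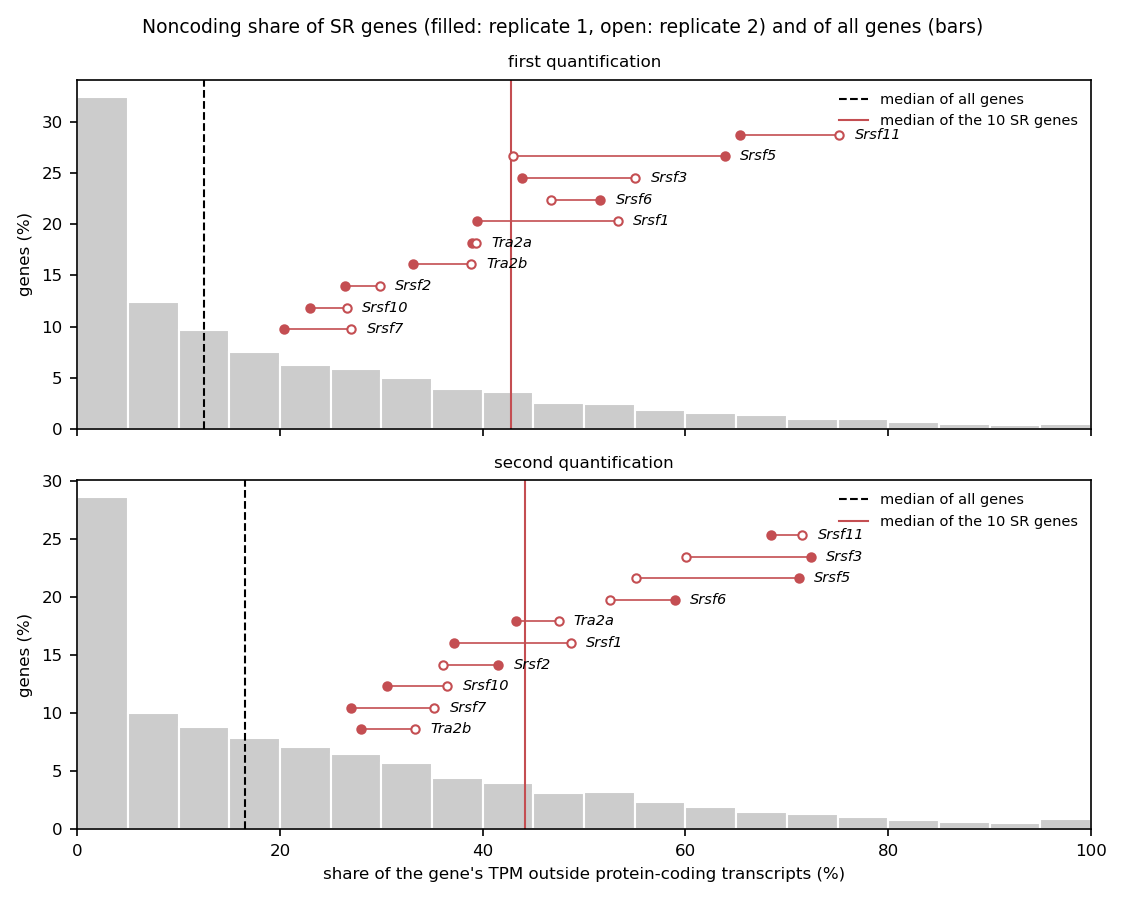
Noncoding share of TPM (x axis, percent) of each SR gene in replicate 1 (filled) and replicate 2 (open), over the distribution of all background genes (grey bars, percent of genes per 5-point bin), for the alignment-based (top) and read-based (bottom) quantification. The heights of the points only separate the genes. The median of the 10 genes (red line, 42.8% and 44.1%) lies to the right of the median of all genes (dashed line, 12.5% and 16.6%).

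The share also depends on whether length is divided out, because several of the noncoding transcripts are short. As a share of expected counts, which are not divided by length, the median noncoding share was 32.3% over the 10 genes and 5.18% over all genes, and all 10 genes again lay above the median of all genes. The order of the genes changed. Srsf1 fell from 46.4% of TPM to 14.8% of counts, since its retained-intron transcripts Srsf1-206 and Srsf1-203 are annotated at 645 and 759 bases and its coding transcript Srsf1-205 at 5362 bases. Srsf10 fell from 24.8% to 5.90%. Tra2a went the other way, from 39.1% to 53.0%, since its retained-intron transcript Tra2a-203 is annotated at 3788 bases.

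**Figure D3:**
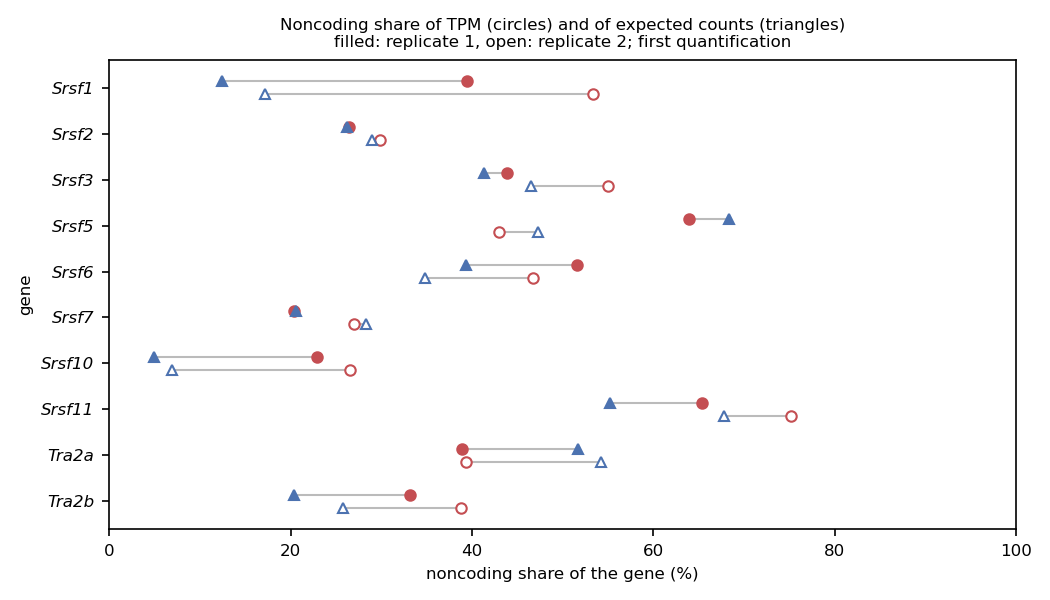
Noncoding share (x axis, percent) of each gene as a share of TPM (circles) and of expected counts (triangles), in replicate 1 (filled) and replicate 2 (open), alignment-based quantification. The gap is widest for Srsf1 and Srsf10. For Srsf5 and Tra2a, and slightly for Srsf7, the triangles lie to the right of the circles.

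In 6 of the 10 genes the annotation has an NMD transcript whose extra exon holds the stop codon and lies within an intron of the leading coding transcript: Srsf3, Srsf6, Srsf7, Srsf11, Tra2a and Tra2b. The coding parts of these exons are shown because they are the stretches that turn a coding transcript into an NMD transcript. They are taken from the GENCODE M21 transcript sequences (mm10, the B6 reference, 5′ to 3′ on the gene's strand), in lower case from the first base of the exon, with the stop codon in capitals.
Srsf3-201, chr17:29039454-29039487, plus strand: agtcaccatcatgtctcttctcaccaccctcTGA
Srsf6-201, chr2:162932815-162932966, plus strand: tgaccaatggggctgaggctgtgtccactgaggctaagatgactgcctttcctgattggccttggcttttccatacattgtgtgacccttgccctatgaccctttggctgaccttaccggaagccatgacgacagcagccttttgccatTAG
Srsf7-203, chr17:80205054-80205081, minus strand: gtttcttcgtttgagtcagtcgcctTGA
Srsf11-206, chr3:158024209-158024231, minus strand: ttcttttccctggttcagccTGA
Tra2a-202, chr6:49252965-49253108, minus strand: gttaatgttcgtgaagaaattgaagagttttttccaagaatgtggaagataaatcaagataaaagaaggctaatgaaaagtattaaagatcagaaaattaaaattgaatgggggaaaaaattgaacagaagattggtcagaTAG
Tra2b-206, chr16:22259181-22259261, minus strand: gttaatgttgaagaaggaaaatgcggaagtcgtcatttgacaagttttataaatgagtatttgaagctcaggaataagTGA

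Reading frames close early in each. The stop codon follows 31 coding bases of the 456-base exon in Srsf3-201, 149 of 268 in Srsf6-201, 25 of 460 in Srsf7-203, 20 of 109 in Srsf11-206, 141 of 306 in Tra2a-202 and 78 of 276 in Tra2b-206. The Tra2a and Tra2b exons open with the same 9 bases, gttaatgtt.

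By TPM, Srsf6 had the largest NMD share of the 10 genes. Its poison-exon transcript Srsf6-201 stood at 11.2 and 9.44 TPM in replicates 1 and 2, which is 28.3% ± 2.18 of the gene. The coding transcript Srsf6-203 stood at 18.3 and 18.8 TPM, or 50.9% ± 3.47. The retained-intron transcript Srsf6-204 had 8.21 and 7.05 TPM, or 20.9% ± 1.29. Both animals gave the same order of coding, NMD and retained intron by TPM. The read-based quantification gave it too, with Srsf6-201 at 36.6% and 31.4%. As a share of expected counts in the alignment-based table, retained intron lay above NMD, at 22.3% and 19.9% against 17.1% and 14.9%. The mean NMD share of counts was 16.0% for Srsf6, below the 20.4% of Srsf3.

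Srsf3 came next. Its poison-exon transcript Srsf3-201 stood at 10.2 and 8.38 TPM, which is 18.6% ± 2.89 of the gene, and the read-based table put it at 23.2% and 29.9%. The coding transcript Srsf3-202 had 27.8 and 22.8 TPM, or 50.6% ± 7.91. Srsf3-204, which keeps intron 3 whole and the short intron 4 as well, had 4.38 and 4.40 TPM, or 8.77% ± 0.0980. The remaining difference between the animals lay in the short processed transcripts. Srsf3-209, of 518 bases, was at 5.27 and 12.3 TPM, and its share was 10.6% and 24.4% in the alignment-based table but 2.85% and 8.28% in the read-based table, so its level was uncertain.

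Tra2a had 6.04 and 3.26 TPM of its poison-exon transcript Tra2a-202, which is 15.4% ± 3.83 of the gene. The coding transcript Tra2a-201 stood at 19.1 and 14.6 TPM, and its share was nearly the same in both animals, 57.1% and 57.0%. Tra2a-203, a retained-intron transcript of a single exon that runs 3595 bases into intron 1 and stops well short of the poison exon, had 6.18 and 6.38 TPM. The NMD share of Tra2a was thus higher in replicate 1 and the retained-intron share higher in replicate 2, and their sum was 38.9% and 39.3% in replicates 1 and 2. In the read-based table the sum was 43.3% and 47.5%.

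Tra2b had 1.41 and 2.22 TPM of Tra2b-206, its longest poison-exon transcript, which is 5.79% ± 1.72 of the gene. The short annotated NMD transcripts Tra2b-207 and Tra2b-209, which carry the same exon start, were each listed at 0 in a different animal, at 0 and 3.30 TPM and at 2.76 and 0 TPM. Summed over the class, the NMD share of Tra2b was 13.5% and 17.4%, and 6.98% and 10.6% by the read-based quantification. Its coding transcripts Tra2b-204 and Tra2b-201 had 37.6% ± 4.74 and 26.5% ± 0.700 of the gene. The retained-intron transcript Tra2b-203, whose last exon covers the region of the poison exon, had 4.05 and 4.98 TPM, or 14.4% ± 1.82.

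Srsf7 has the same arrangement, but little of its poison-exon transcript was found. Srsf7-203 was listed at 0.360 and 0.890 TPM, which is 1.39% ± 0.907 of the gene. The same intron was instead kept whole: Srsf7-206, which retains intron 3, had 8.05 and 9.71 TPM, or 19.4% ± 3.85. The near-identical Srsf7-207 (1921 against 1898 bases) also retains it, and the read-based table divided the reads differently, with 2.07% and 10.9% for Srsf7-206 and 16.3% and 11.0% for Srsf7-207. The retained-intron class as a whole was steadier, at 19.6% and 25.01%, and at 25.9% and 32.7% in the read-based table. Coding transcripts kept 79.6% and 73.0% of Srsf7, led by Srsf7-201 at 21.5 and 15.9 TPM and Srsf7-208 at 14 and 13.9 TPM. The coding transcript Srsf7-202 was again divided differently, at 0.710 and 0.690 TPM against 6.55 and 13.5 TPM in the read-based table.

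Srsf11 had the largest noncoding share of the 10 genes, 70.3% ± 6.97, and nearly all of it was of the retained-intron class, 61.8% and 71.4%. None of its 11 annotated transcripts of that class keeps an intron of the leading coding transcript whole. The coding transcript Srsf11-202 had 13.3 and 11.98 TPM, or 21.7% ± 2.83. The retained-intron transcript Srsf11-208 had 10.4 and 14.3 TPM, so it ranked below Srsf11-202 in replicate 1 and above it in replicate 2. Srsf11-213 (6.04 and 8.56 TPM), Srsf11-203 (6.79 and 6.76 TPM) and Srsf11-218 (3.78 and 6.18 TPM) followed. The short Srsf11-211, of 521 bases, had 4.02 and 1.92 TPM, and 13.04 and 10.2 TPM in the read-based table. Of these transcripts, Srsf11-208, Srsf11-213, Srsf11-203 and Srsf11-218 enter intron 2, the intron that holds the poison exon. The poison-exon transcript Srsf11-206 itself had 1.18 and 1.36 TPM, or 2.18% ± 0.0893, and 7.43% and 8.88% in the read-based table. A gene entry of the class TEC, Gm43362, overlaps Srsf11 on the same strand over 2470 bases and was listed at 0.880 TPM.

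**Figure D4:**
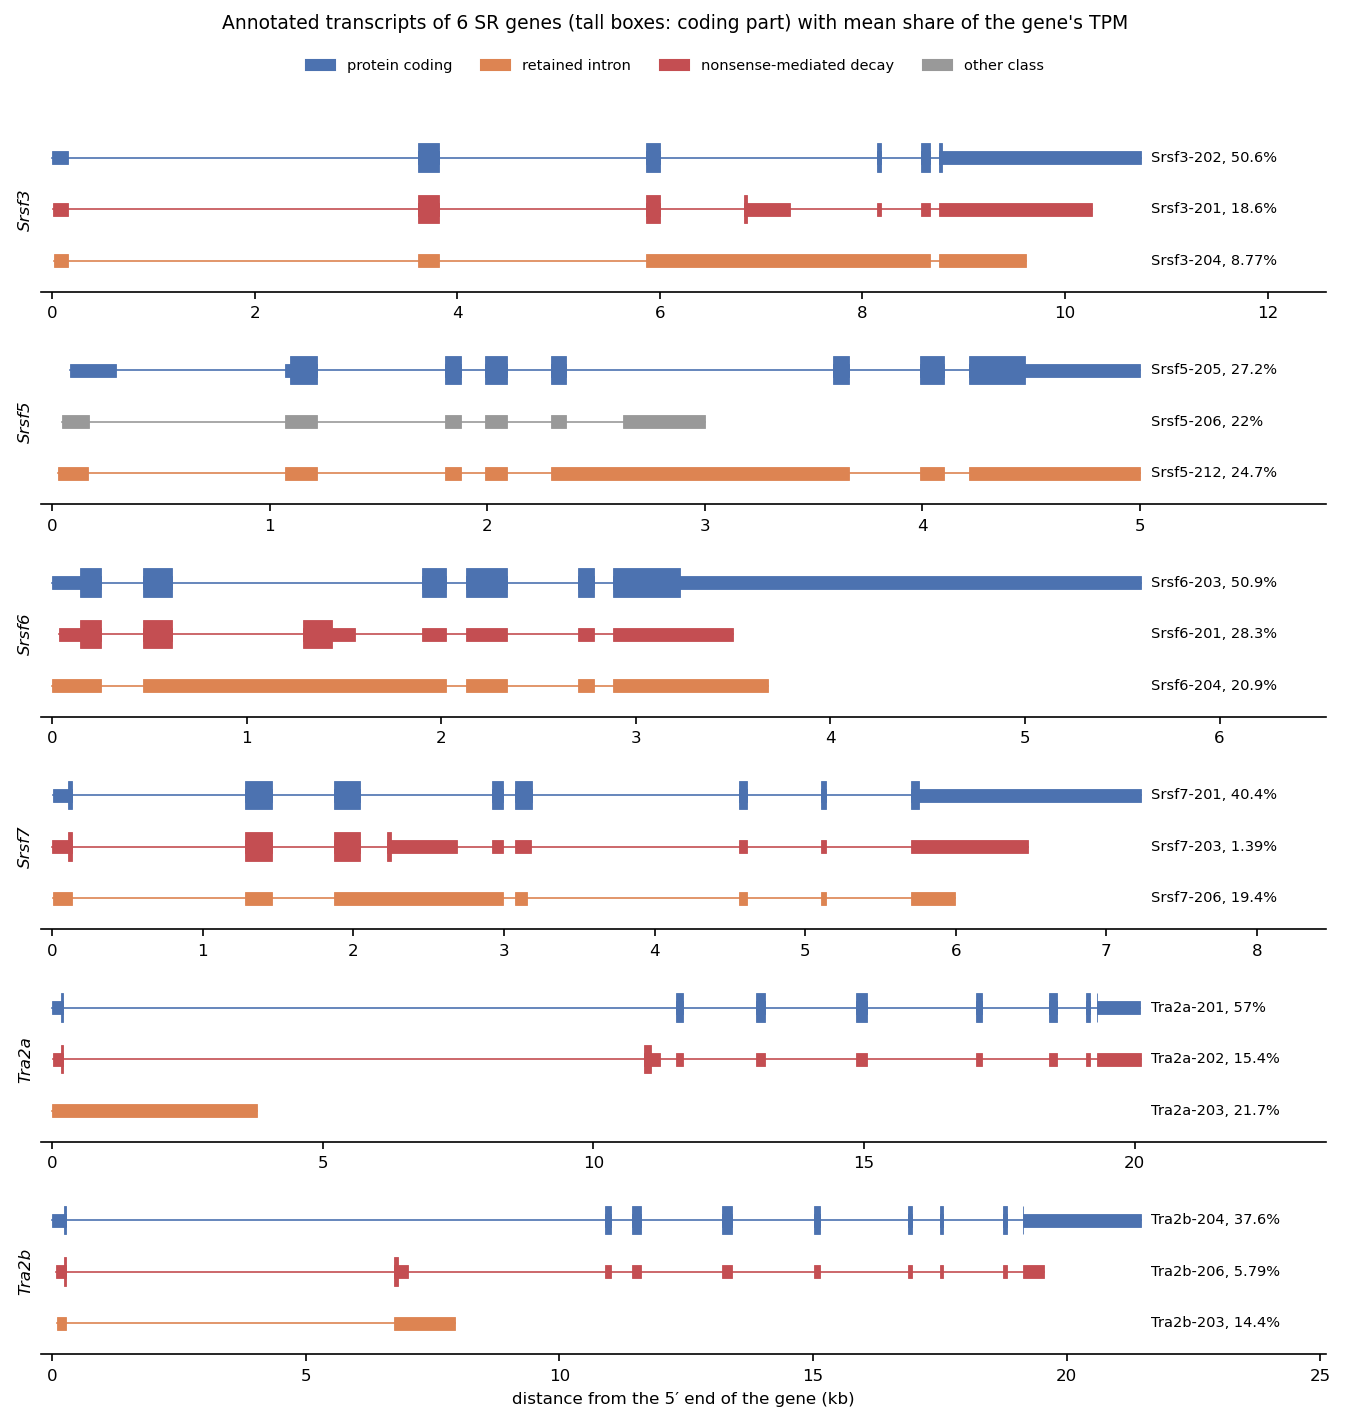
Annotated transcripts of 6 SR genes drawn to scale (x axis, distance in kb from the 5′ end of the gene; boxes are exons, tall boxes the coding part), each with its mean share of the gene's TPM by the alignment-based quantification. In Srsf3, Srsf6 and Srsf7 the extra exon of the NMD transcript (red) lies inside the intron that the retained-intron transcript (orange) keeps, and the coding part ends within that exon. The retained-intron transcript of Tra2a ends before the extra exon.

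Srsf1, Srsf2 and Srsf5 had retained-intron transcripts. None of them has an annotated NMD transcript whose extra exon holds the stop codon and lies within an intron of the leading coding transcript. Their NMD shares by the alignment-based quantification were 8.52% in Srsf1, 1.06% in Srsf2 and 0 in Srsf5. For Srsf5 and Srsf6, the ends of the kept intron are shown so that the boundary the splicing machinery passes over can be seen, with 10 exon bases and 20 intron bases at each end, and with the first and last 2 intron bases in capitals. They come from the same GENCODE M21 sequences.
Srsf5-212, intron 5, 5′ end, chr12:80947856-80947885: cagctggcagGTttgttgaaatacagtttt
Srsf5-212, intron 5, 3′ end, chr12:80949075-80949104: cataattgtcttgtgttaAGgatctcaaag
Srsf6-204, intron 2, 5′ end, chr2:162932133-162932162: ggaagccgcaGTgagtccttacccccgcgc
Srsf6-204, intron 2, 3′ end, chr2:162933406-162933435: actcccttcatgtgataaAGgtggtggagg
Both introns begin with GT and end with AG, the usual pair, as did the other introns that transcripts of the retained-intron class kept whole in these genes.

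Srsf5 had the widest gap in noncoding share between the animals, by both quantifications. In the alignment-based table its coding transcripts differed most in TPM. Srsf5-205, the leading coding transcript of replicate 2, had 16.0 and 49.4 TPM, and the authors' deposited interval for it ran from 9.37 to 19.6 in replicate 1 and from 40.1 to 54.2 in replicate 2. The read-based table listed it at 0.946 and 58.4 TPM. Srsf5-212, which keeps intron 5 whole, differed too, at 30.1 and 22.9 TPM, with deposited intervals of 26.6 to 30.95 and 19.8 to 24.3. Srsf5-206, a processed transcript that ends inside intron 5, had 23.6 and 24.8 TPM. The coding transcripts Srsf5-201 and Srsf5-202 had 7.07 and 13.98 TPM and 10.9 and 6.80 TPM, and the read-based table listed Srsf5-202 at 0.404 and 0.00448 TPM. Its only NMD transcript, Srsf5-208, was listed at 0 in both animals by the alignment-based table and at 0 and 0.297 TPM by the read-based table. Coding transcripts together had 33.9 and 74.96 TPM. The noncoding share was therefore 63.9% in replicate 1 and 43.0% in replicate 2, a mean of 53.5% ± 14.8, and 71.2% and 55.1% by the read-based quantification. In replicate 1 the leading Srsf5 transcript was Srsf5-212 by both quantifications, and in replicate 2 it was Srsf5-205. Replicate 1 is also the library with higher early response and choroid plexus markers, and whether this bears on Srsf5 was not tested.

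Srsf2 had 40.6 and 40.5 TPM of its coding transcript Srsf2-201 and 16.5 and 19.3 TPM of Srsf2-203, which keeps intron 2 and makes up 27.1% ± 0.930 of the gene. Of its NMD transcripts only Srsf2-204 had any TPM by the alignment-based table, at 0 and 1.47. Srsf2-206, of the coding class, had 5.27 and 8.18 TPM, or 10.1% ± 2.36. It holds 104 exonic bases inside intron 2, in the same extra exon as the NMD transcript Srsf2-202, so the class shares count that exon as coding. The read-based table placed 12.9 and 8.13 TPM in Srsf2-205, a processed transcript of 433 bases that the alignment-based table listed at 0, and this raised the noncoding share there to 38.8% ± 3.87 from 28.2% ± 2.43. Srsf2 overlaps the coding genes Mettl23 (3194 bases) and Mfsd11 (655 bases) on the opposite strand, at 9.95 and 19.4 TPM, with a strand setting not given in the sources used here. Reads in this region are therefore uncertain.

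Srsf1 has 3 coding transcripts. Srsf1-201 stood at 17.8 and 19.9 TPM, Srsf1-205 at 14.5 and 15.1 TPM, and Srsf1-202 at 18.03 and 5.59 TPM. Of its noncoding transcripts, Srsf1-206 had 13.3 and 20.7 TPM and Srsf1-203 had 14.3 and 16.3 TPM, both retained-intron, and the NMD transcript Srsf1-204 had 5.23 and 9.35 TPM. The noncoding share was 39.5% and 53.4%. Of the 3 coding transcripts, Srsf1-202 was the only 1 lower in replicate 2, and it was so in both quantifications (12.9 and 6.73 TPM in the read-based table). The last exon of Srsf1-201 runs through an intron that Srsf1-202 and Srsf1-205 remove, and its coding part ends inside that intron. The class shares therefore count a transcript that keeps this intron as coding.

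Srsf10 has 4 coding and 6 processed transcripts in the annotation, and none of the retained-intron or NMD class. Srsf10-204 stood at 13.3 and 9.24 TPM and Srsf10-205 at 8.61 and 6.08 TPM, and Srsf10-202 was higher in replicate 2, at 1.99 and 4.46 TPM. The largest noncoding transcript was Srsf10-207, of 717 bases and ending inside intron 2, at 3.47 and 3.83 TPM. The noncoding share was 22.9% and 26.6%, and 30.6% and 36.5% in the read-based table. As a share of counts it was 4.91% and 6.90%.

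Over the group, the noncoding share was lower in replicate 1 for 8 of the 10 genes by the alignment-based quantification, where 45.3% of all genes were, and for 6 by the read-based quantification, where 45.4% were. The exceptions in the first were Srsf5 and Srsf6. The median size of the gap between the animals was 6.18 points over the 10 genes and 2.79 over all genes, and 6.19 against 3.64 by the read-based table. Genes with little noncoding TPM can hardly differ. In the alignment-based background 32.5% of genes had a share below 5%, while the lowest of the 10 had 23.7%. All genes were not matched to the 10 on this share.

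In 8 of the 10 genes, all but Srsf1 and Srsf10, most noncoding TPM by the alignment-based quantification lay in transcripts that enter the same intron. For each gene the intron of its leading coding transcript was found that the largest share of noncoding TPM enters, counting a transcript with at least 50 exonic bases in it. In those 8 genes at least 75% of the noncoding TPM belonged to transcripts that enter a single intron, against 32.1% of 6446 genes with at least 10% noncoding TPM and at least 2 introns. The median was 93.8% over the 10 genes and 55.9% over those genes, and 54.0% over those of them with at least 5 introns. The 10 genes have fewer introns, with a median of 6 against 10. By the read-based quantification 6 of the 10 reached 75%, against 32.8% of 6413 genes, and the medians were 81.4% and 57.2%.

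The intron was intron 2 in Srsf2, Srsf6 and Srsf11, intron 3 in Srsf3 and Srsf7, intron 5 in Srsf5 and intron 1 in Tra2a and Tra2b. Transcripts entering it made up 49.1% ± 3.47 of all Srsf6 TPM, 49.7% ± 13.3 of Srsf5, 46.8% ± 7.54 of Srsf3 and 57.3% ± 7.70 of Srsf11. In Srsf6 and Srsf7 every noncoding transcript with TPM entered that intron. In 8 of the 10 genes, all but Srsf1 and Srsf10, both a retained-intron transcript and a noncoding transcript of another class enter the same leading intron by annotation, where 17.3% of the 6446 genes have this. With both kinds above 0 TPM in the alignment-based table there were 7, without Srsf2, against 15.0% of those genes. Both counts depend on the annotation, and the 6446 genes were not limited to those with an annotated transcript of each kind. In Srsf1 and Srsf10 the leading intron held 42.9% and 59.3% of the noncoding TPM, and 56.2% and 52.5% by the read-based table. The Srsf1 value depends on the reference, since all exons of Srsf1-203 and Srsf1-204 lie within exons of its leading coding transcript. Neither could therefore enter a counted intron. Srsf1-203 keeps whole an intron of another coding transcript, Srsf1-202, but not the intron that Srsf1-206 enters.

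**Figure D5:**
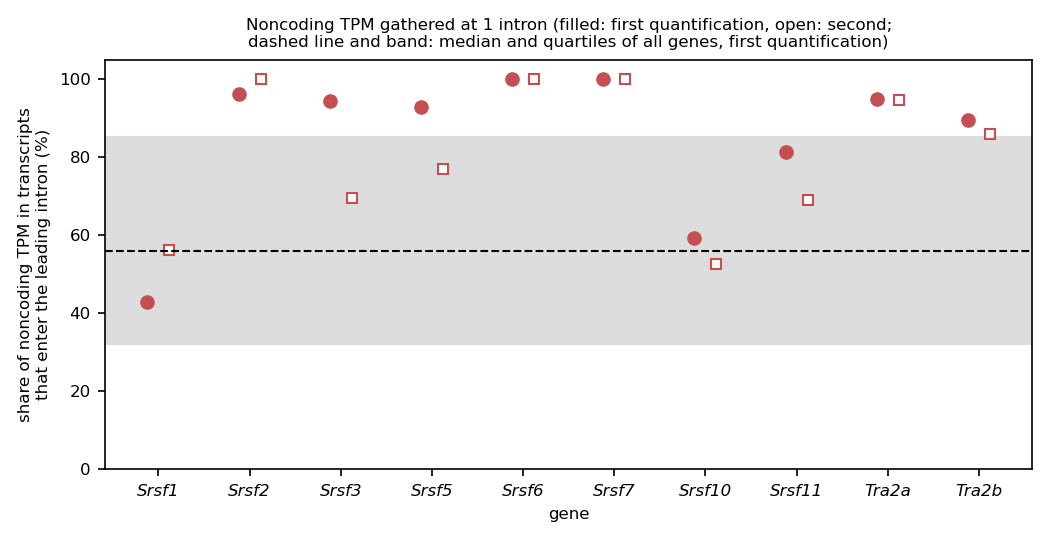
Share of each gene's noncoding TPM (y axis, percent) in transcripts that enter its leading intron, by the alignment-based (filled circles) and read-based (open squares) quantification. The dashed line and grey band are the median of 55.9% and the quartiles of 6446 genes. The circles of 8 genes lie above 75%, and Srsf1 and Srsf10 lie at 42.9% and 59.3%.

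Transformer-2 proteins bind GAA-rich sequence, so the letters GAAGAA were counted in exons of NMD transcripts that hold the stop codon and overlap no exon of a coding transcript. Overlapping matches were counted, on the transcript strand, with the reverse complement TTCTTC as the opposite strand. Of the members, 7 such exons in 5 genes qualified, the 2 of Tra2b overlapping each other. The Srsf6 exon was left out because the annotated coding transcript Srsf6-202 overlaps it. GAAGAA was found 4 times in the 306-base exon of Tra2a, 3 times in the 276-base exon of Tra2b, and 1 time in that of Srsf7. It was in none of the exons of Srsf3 and Srsf11. That is 4 of 7 exons, or 3 of 6 with the shorter of the overlapping Tra2b exons alone, where 12.9% of 778 such exons of 109 to 460 bases in other genes held it. The members' exons are longer, with a median of 306 bases over the 7 and 291 over the 6, against 154. Per length, taking the shorter of the overlapping Tra2b exons, it is 4.64 matches per kb against 0.869. The reverse TTCTTC was in 3 of 7 exons, those of Srsf3, Srsf7 and 1 of Srsf11, and in 7.20% of the others, which is 1.74 against 0.431 matches per kb counted the same way. A match is a string of letters and not a binding site.

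Related gene lists gave the level of the 10 genes some context. Of the remaining SR genes, Srsf9 had a noncoding share of 75.1% ± 3.49 and Srsf4 of 24.8% ± 3.77, while Srsf12, at 11.6 TPM, had none in either animal. The 24 SR kinases, SR-related and splice-site factors had a median noncoding share of 43.7% (42.8% by the read-based table), and 7 of the 24 (10 by the read-based table) had at least 50% in both libraries, beside the 8.77% (10.6%) of all genes given above. By the alignment-based table Clk1, a kinase that phosphorylates SR proteins, led at 97.5% ± 3.56, followed by Prpf4b, a kinase of the spliceosome, at 81.5% ± 3.07, and Luc7l3 and U2af2 were lowest, at 11.9% ± 1.76 and 11.96% ± 1.19, too close to be ranked. Of 22 hnRNP genes, which often oppose SR proteins at exons, 21 could be measured, with a median of 25.5% and 2 (4 by the read-based table) at or above 50% in both libraries. Hnrnpu led at 80.8% ± 1.52 and Hnrnph1 followed at 56.8% ± 5.28, and Hnrnpab, Hnrnpf and Hnrnph2 were at 0. The 14 genes of NMD and the exon junction complex had a median of 12.9%, with none at or above 50% in both libraries. Smg9 and Smg5 led that list by the alignment-based table, at 42.8% ± 2.61 and 39.8% ± 3.604, and Rbm8a and Smg5 by the read-based table, at 56.98% ± 10.4 and 52.1% ± 6.03. Upf1, the central helicase of NMD, was at 0 by the alignment-based table, as was Smg8.

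The genes outside the group whose class shares lay nearest to the median profile of the 10, averaged over both libraries and both quantifications, were Exosc10, Ppil2, Usp4, Clk2 and Abhd16a, out of 7821 genes with at least 10 TPM. The median profile was 56.6% coding, 24.8% retained intron, 6.99% NMD and 1.35% other. These medians were taken class by class and do not add up to the whole. No gene can match them exactly, and part of every distance comes from this. Exosc10, a nuclear exosome nuclease, was nearest, at a distance of 6.06 percentage points, with 60.3% coding and 29.3% retained intron, and Clk2, a kinase of SR proteins, lay at 6.46 points.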

How the data were processed

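Total RNA libraries from 2 animals were analysed, 1 library each. Per the notes deposited with the files, the authors quantified each library on mm10 with GENCODE M21, from transcriptome alignments (expected counts and TPM per gene and transcript, with the percent of the gene per transcript) and from the reads (estimated counts and TPM per transcript). Programs, versions and the strand setting were not given in the sources used here. The deposited TPM were summed by annotated class and divided by the gene's sum, and these shares matched the deposited percent within 0.023 points. For the animal ratio, deposited expected counts were rounded, scaled by TMM (edgeR 4.0.16) and given a prior count of 2, for genes averaging 50 counts or more. DESeq2 1.42.0 size factors were an alternative. The software was matplotlib 3.10.9, numpy 2.4.6 and pandas 2.3.3 under Python 3.11.15, and R 4.3.3.

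The calculation of shares was checked on counts simulated for 500 genes. Each simulated read was assigned to its true transcript, so the check cannot show errors from splitting reads among overlapping transcripts. The leading coding transcript of a gene, by mean TPM, defined its introns. The members, lists and rules were chosen with earlier results of these data known. Named are all 10 genes, transcripts with at least 10% of their gene in a library or leading their class, the 2 highest and the lowest of each list, and the 5 genes nearest in profile. Depth limits precision, and transcripts under about 1 TPM rest on few reads.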

Additional observations from a re-analysis of the deposited data

How the results depend on the processing

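Across the other settings (the read-based table, counts instead of TPM, posterior mean TPM, transcripts under 1 TPM set to 0, only the coding, retained-intron and NMD classes, and each animal alone), the median retained-intron share moved by less than the SD between animals. The median noncoding share moved to 32.3% with counts and to 38.4% with only those 3 classes, and ranged from 39.2% to 41.2% with either animal left out. The median NMD share moved to 3.40% with counts. The number of genes with at least 50% noncoding TPM was 1, and became 4 with the read-based table, 2 with counts, 3 with either animal left out and 8 at a threshold of 25%. The number 1.5-fold apart between animals was 0, and became 2 with TPM of the read-based table and 1 after centring, which was chosen after seeing the data. Of the 10 genes' own noncoding shares, 7 moved by more than the SD with the read-based table and 6 with counts. The cause was not tested beyond the division by length.

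With 2 animals the SD is itself imprecise. Overlapping transcripts share reads, so short or low transcripts are the least certain. No paired analysis was possible because there is 1 group.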
